A study of Homo sapiens with 18 samples.

Results

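The comparison described here set RNA that came down with the stress granule protein G3BP1 against total input RNA, both from arsenite-treated U251-MG cells. U251-MG is an established human astrocytoma line. The arrays were chosen by their sample titles alone, 3 for the stressed G3BP1 immunoprecipitate and 3 for the stressed input, and make up 6 of the 18 arrays of the series. The series also holds immunoprecipitates of TIAR, another granule protein, and the same 3 kinds of RNA from unstressed cells, giving 6 groups of 3 arrays.

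All groups came from unmodified U251-MG cells grown in DMEM with FBS. Stressed cells received 500 µM arsenite and were harvested after 30 minutes. Unstressed cells received DMSO for 30 minutes. Arrays within a group are labelled biological replicates 1 to 3, with no further word on what separated them, so p-values measure the spread between these samples. Immunoprecipitation with an unspecific antibody was not analysed here, and every enrichment below is relative to total RNA of the same cells. The labels state that the RNA was extracted with a column kit and labelled as cRNA. Each array therefore reports relative abundance within its own RNA, on a log2 scale after RMA.

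G3BP1 is an RNA-binding protein that, with its paralog G3BP2 and partners such as CAPRIN1 and UBAP2L, drives assembly of stress granules. Arsenite causes oxidative stress and phosphorylation of eIF2α, which blocks initiation, so ribosomes run off and the released mRNAs condense with G3BP1 and TIA proteins. Long mRNAs that are poorly translated are known to accumulate in these granules. An immunoprecipitate of G3BP1 can hold RNA bound directly and RNA carried in larger assemblies.

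The measured values of all 18 arrays lay between 1.64 and 14.53, with a median of 7.88. The 3 stressed G3BP1 arrays had upper quartiles of 9.78 to 9.92, and the 3 stressed inputs had 9.17, 9.54 and 9.57. The lowest of these belongs to stressed input replicate 1, which also had the lowest mean correlation with its own group among the 6 compared arrays, at 0.980. Unstressed G3BP1 replicate 3 likewise stood apart (own-group correlation 0.980, upper quartile 9.45). It enters the unstressed comparison and the arsenite difference directly. Through the spread shared by all 18 arrays it also enters the errors and adjusted p-values of the stressed comparison. Results are therefore given with and without stressed input replicate 1. Levels of astrocyte and glioma markers were mixed. GFAP, the astrocyte intermediate filament, averaged 8.36 in stressed input, and NES, an intermediate filament of neural precursors, averaged 8.87. AQP4, the water channel of mature astrocytes, averaged 5.05. Some markers of other cell types were as high, with the epithelial CLDN4 at 8.88 and the neuronal GAD1 at 8.84. These levels alone therefore do not identify the cells.

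Stressed G3BP1 immunoprecipitates differed from stressed input across a large part of the transcriptome. Of 22011 transcript clusters, 6440 (29.3%) were higher in the immunoprecipitate and 3339 (15.2%) were lower, by limma at an adjusted p under 0.05. A change of at least 2-fold was found for 2085 of the higher clusters (9.47% of all) and 1047 of the lower (4.76% of all). Without stressed input replicate 1 the calls were 5706 higher (25.9%) and 3357 lower (15.3%). With unstressed G3BP1 replicate 3 left out as well, they were 6662 and 4183. The split depends on how arrays are put on one scale. Higher clusters were 65.9% of the calls as deposited and 56.3% under quantile normalization. Cyclic loess gave 52.0% and median centring 48.9%. Median centring moved the median change over all clusters from 0.03 to -0.14.

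Gene symbols could be given to 14232 genes, each represented by its brightest transcript cluster. Among them 5025 (35.3%) were higher and 1409 (9.9%) lower, with a median log2 change of 0.11. Without stressed input replicate 1 these shares were 31.5% and 9.64%. All 3 immunoprecipitates lay above all 3 inputs in 40.3% of genes and below them in 14.8%. Counts of gene lists below are to be read against 35.3% and 9.9%. In the 7920 genes at or above the median value, 51.7% were higher and 10.6% lower, so bright genes were more often called higher. Most calls fell on protein-coding genes. Of 13734 protein-coding genes 4983 were higher and 1349 lower, while of 317 long noncoding RNAs 18 were higher and 42 lower.

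The leading genes of each direction were chosen among those whose arrays did not overlap, so that separation was set by the choice. Many of the transcripts with the largest enrichment encode very large proteins. HERC1, a giant HECT-domain ubiquitin ligase, measured 9.93, 9.73 and 9.80 in the immunoprecipitates and 6.65, 7.07 and 7.18 in the inputs. The groups were far apart, and HERC1 was 7.22-fold enriched (log2 change 2.85 ± 0.19 SE, n = 3 per group, limma adjusted p = 2.2e-08). DYNC1H1, the heavy chain of cytoplasmic dynein, measured 12.15, 12.04 and 12.14 against 9.15, 9.51 and 9.66. That is a 6.36-fold enrichment with no overlap between arrays (log2 change 2.67 ± 0.12 SE, adjusted p = 1.6e-09). UBR4, another giant ubiquitin ligase, measured 12.42, 12.36 and 12.47 against 9.55, 10.14 and 10.13. All its immunoprecipitate arrays lay above 12, in the brightest range of the array, and the log2 change was 2.47 ± 0.14 (adjusted p = 5.4e-09).

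Large secreted and membrane proteins stood beside these ligases. FBN1, which encodes the microfibril protein fibrillin-1, rose by a log2 change of 2.57 ± 0.17, from inputs of 7.90, 8.36 and 8.51 to 10.83, 10.76 and 10.88. The giant cadherins FAT4 and FAT1 rose by 2.43 ± 0.17 and 2.37 ± 0.15, and the basement membrane protein FRAS1 by 2.42 ± 0.15. In each of these genes the lowest immunoprecipitate array exceeded the highest input by more than 1 log2 unit. PRKDC, the catalytic subunit of DNA-dependent protein kinase, rose by 2.46 ± 0.16, and MYCBP2, a giant ubiquitin ligase of neurons and other cells, by 2.40 ± 0.21.

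Not every strongly enriched transcript encodes a giant protein. DGKA, a diacylglycerol kinase, had the smallest error among the leading genes, with 10.94, 10.94 and 11.10 in the immunoprecipitates and 8.17, 8.34 and 8.33 in the inputs. Its 6.55-fold enrichment (log2 change 2.71 ± 0.09 SE, adjusted p = 2.1e-10) was second only to HERC1 among the 15 leading genes. FST, which encodes follistatin, a secreted activin antagonist, rose by 2.58 ± 0.16, with inputs of 7.52, 8.05 and 8.12 and immunoprecipitates of 10.43, 10.64 and 10.37. PIK3R4, a regulatory subunit of the class III phosphoinositide 3-kinase, rose by 2.44 ± 0.18, UNC13B by 2.42 ± 0.17, the inositol phosphatase INPP5B by 2.39 ± 0.20 and URGCP by 2.38 ± 0.26. URGCP shows how stressed input replicate 1 enters these values. Its inputs were 6.68, 7.95 and 7.85, and without replicate 1 its log2 change was 1.97 in place of 2.38.

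**Figure D1:**
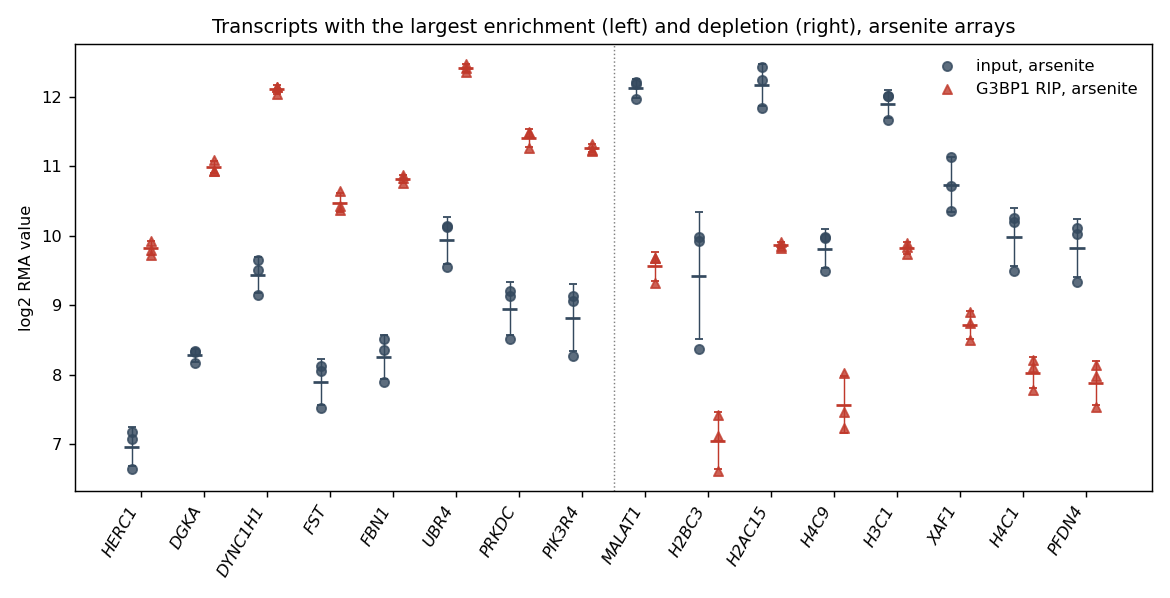
Log2 RMA values (y axis) of the 8 most enriched and 8 most depleted named genes (x axis) in the 3 stressed inputs (circles) and the 3 stressed G3BP1 immunoprecipitates (triangles), with horizontal bars for means and error bars for 1 SD. As the choice of genes required, the 3 immunoprecipitate arrays lie wholly above the inputs left of the dotted line and wholly below them to its right. Input replicate 1 is the lowest input in most genes, as for H2BC3 at 8.37 beside 9.98 and 9.93.

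At the other end stood a nuclear noncoding RNA and the replication-dependent histones. MALAT1, a long noncoding RNA retained in nuclear speckles, measured 9.68, 9.32 and 9.68 in the immunoprecipitates and 11.97, 12.19 and 12.22 in the inputs. It was 5.93-fold lower after precipitation (log2 change -2.57 ± 0.29 SE, adjusted p = 4.5e-06), the largest depletion among the named genes. TUG1, the other long noncoding RNA of that list on the array, moved the opposite way, from 11.57, 11.71 and 11.77 to 12.39, 12.29 and 12.45 (log2 change 0.69 ± 0.07, adjusted p = 2.4e-06).

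Histone transcripts were depleted almost as a class. Of 53 histone genes on the array, 48 were lower and 0 higher, with a median log2 change of -1.31 and a range from -2.37 to 0.13. The background shares are 9.9% lower and 35.3% higher. Replication-dependent histone mRNAs are short and end in a stem loop instead of a poly(A) tail. H2AC15, an H2A gene, measured 9.86, 9.91 and 9.83 against 11.84, 12.43 and 12.24. These arrays did not overlap, as the choice of leading genes required, and the transcript was 4.94-fold lower (log2 change -2.30 ± 0.17 SE, adjusted p = 5.4e-08). H3C1 fell by 2.08 ± 0.32, H4C9 by 2.25 ± 0.24 and H2BC3 by 2.37 ± 0.59. The inputs of H2BC3 were 8.37, 9.98 and 9.93, and its large error pools the spread of all 6 groups. Histone genes occur in near-identical copies, so probes of one may read RNA of another. The count of 48 lower was the same without stressed input replicate 1, with a median of -1.39, and 50 were lower after cyclic loess.

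Other strongly depleted transcripts named by the rule include PFDN4, a prefoldin subunit (-1.94 ± 0.33), COMMD6, a small COMM-domain protein (-1.93 ± 0.32), MRPL50, a mitochondrial ribosomal protein (-1.86 ± 0.22), and TMEM258, a subunit of the oligosaccharyltransferase (-1.82 ± 0.21). XAF1, a proapoptotic interferon-induced gene, fell by 2.02 ± 0.27. FTL, the ferritin light chain, measured 7.68, 7.73 and 7.70 in the immunoprecipitates and 9.06, 9.72 and 9.66 in the inputs, a 3.42-fold depletion (adjusted p = 3.5e-06). Its mRNA is held untranslated by iron regulatory proteins when iron is scarce.

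ATF4 was among the most depleted transcripts. It encodes a transcription factor that directs the integrated stress response and is translated when eIF2α is phosphorylated, through upstream reading frames. Immunoprecipitates measured 8.79, 8.71 and 8.64, and inputs 10.41, 10.43 and 10.68. The groups did not overlap, as the choice of leading genes required, and gave a 3.47-fold depletion (log2 change -1.79 ± 0.12 SE, adjusted p = 2.2e-08). PPP1R15A, which encodes the GADD34 phosphatase subunit that reverses eIF2α phosphorylation, was instead enriched, with 10.24, 10.03 and 10.26 against 9.01, 9.09 and 9.23 (log2 change 1.07 ± 0.15, adjusted p = 2.4e-05).

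The list of giant and very long proteins summarizes the enriched end. Of 56 such genes on the array, 53 were higher and 1 lower, beside 35.3% and 9.9% of all genes. The list was chosen with earlier results of these data known, and it holds HERC1, DYNC1H1, FBN1 and UBR4 from above. Its counts are therefore in part set by that choice. The median log2 change was 1.62, and 1.46 without stressed input replicate 1, when 50 were higher. The 1 lower gene was MACF1, a giant spectraplakin, which measured 5.42, 5.77 and 5.34 against 6.05, 7.08 and 6.19 (log2 change -0.93 ± 0.24). All 6 of its values lay below the median of the arrays.

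Secreted and cell-surface proteins were enriched as well. Among 62 matrix and secreted protein genes 50 were higher and 3 lower, with a median of 0.82. LAMA4, a laminin chain, and COL12A1, a collagen, both rose by 2.05 on the log2 scale, with errors of 0.20 and 0.18. FN1, which encodes fibronectin, measured 11.88, 11.86 and 11.94 against 9.69, 10.27 and 10.24, a 3.54-fold enrichment. The small secreted lectin LGALS1 (-0.51 ± 0.15) and the matrix protein FBLN2 (-0.78 ± 0.14) went the other way. Of 48 membrane receptor and adhesion genes 37 were higher and 0 lower, with a median of 1.10. ITGB5, an integrin β subunit, measured 11.54, 11.54 and 11.59 against 9.38, 9.89 and 10.00, a 3.49-fold rise (adjusted p = 1.7e-07). EGFR, a receptor tyrosine kinase active in glioma, rose by 1.64 ± 0.12, and the receptor phosphatases PTPRG and PTPRF by 1.70 ± 0.18 and 1.58 ± 0.09. Their inputs lay below every immunoprecipitate array.

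Ubiquitin ligases gave 50 higher and 2 lower of 67, with a median of 0.79. This list shares HERC1 and UBR4 with the list of giant proteins. BIRC6, a giant inhibitor of apoptosis with ligase activity, rose by 2.35 ± 0.20, and RNF213, a giant RING ligase, by 2.30 ± 0.12. RNF115 and RNF13, smaller RING ligases, fell by 0.65 ± 0.16 and 0.62 ± 0.18. Deubiquitinases, which remove ubiquitin, were higher in 27 and lower in 4 of 53, led by USP13 (1.91 ± 0.17) and USP34 (1.62 ± 0.27).

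Cytosolic and mitochondrial tRNA synthetase genes were another enriched list, with 23 higher and 1 lower of 31 and a median of 0.89. CARS1, the cysteinyl-tRNA synthetase, measured 10.68, 10.58 and 10.60 against 8.69, 8.97 and 9.04 (3.30-fold, adjusted p = 2e-08). AARS1 rose by 1.58 ± 0.10 and EPRS1 by 1.51 ± 0.20. The 1 gene lower was AIMP1, a noncatalytic scaffold of the synthetase complex (-0.90 ± 0.12). For DNA replication and repair, 31 of 62 were higher and 2 lower. MCM2, a subunit of the replicative helicase, measured 11.64, 11.66 and 11.68 against 9.20, 9.62 and 9.60, a 4.55-fold enrichment, and MCM3 rose by 1.89 ± 0.15. The 2 lower were GINS1 (-0.65 ± 0.12), a small subunit of the same helicase assembly, and ORC6 (-0.59 ± 0.21), the smallest subunit of the origin recognition complex. The call of ORC6 was lost without any 1 of 4 of the 6 arrays (adjusted p up to 0.117). This list had 26 higher and 7 lower without stressed input replicate 1, and lower counts of 10 with arrays centred on their medians, 14 with quantile normalization and 12 with cyclic loess. Of its members 57 were bright, and among bright genes 51.7% were higher. Glycolysis and the TCA cycle gave 23 higher and 2 lower of 42, with OGDH at 1.79 ± 0.10 and hexokinase HK1 at 1.73 ± 0.10.

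For most of these lists, more members were called lower under other scales. After cyclic loess the lower members numbered 7 of the matrix list, 2 of the receptors, 10 of the ubiquitin ligases, 10 of the deubiquitinases, 5 of the tRNA synthetases and 1 of the giant proteins. Without stressed input replicate 1 there were 4 lower ubiquitin ligases, 2 lower tRNA synthetases and 2 lower matrix genes. The shares higher for glycolysis (54.8%), deubiquitinases (50.9%) and decay factors (52.1%) were close to the 51.7% of bright genes.

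**Figure D2:**
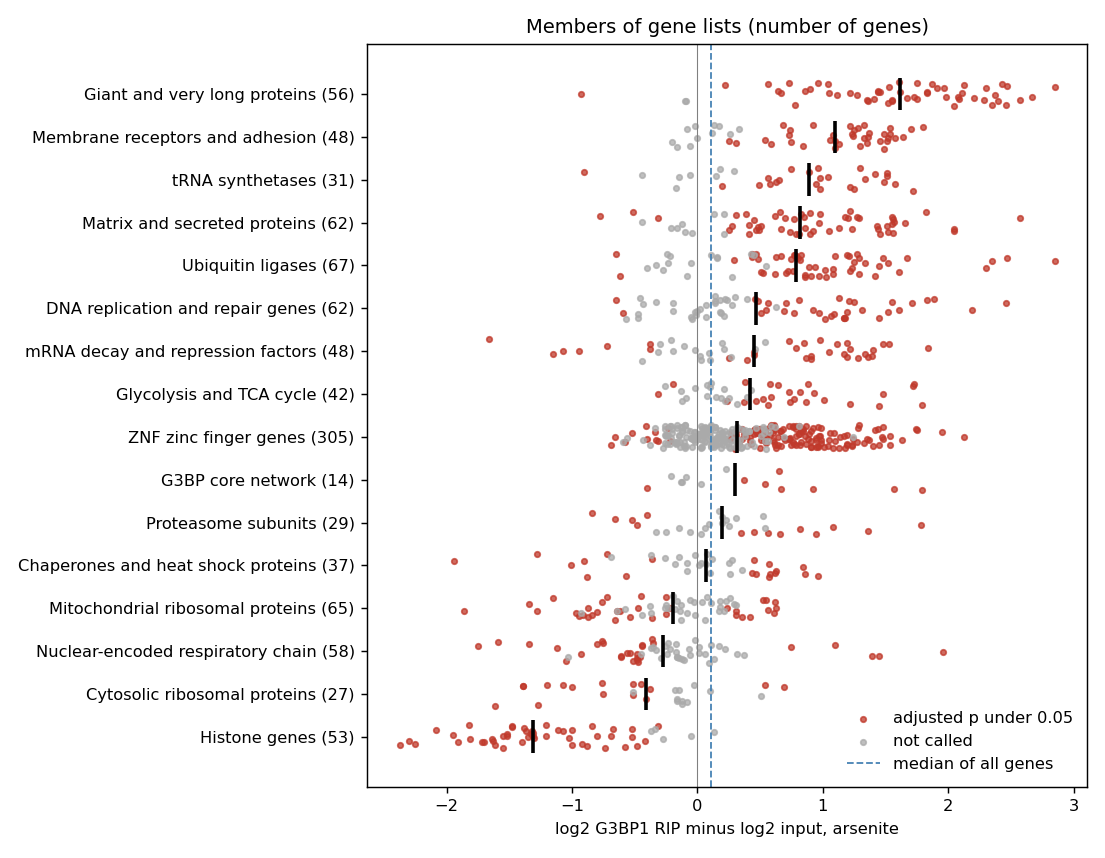
Log2 change between stressed G3BP1 immunoprecipitate and stressed input (x axis) for every member of 16 gene lists (y axis, number of genes in parentheses), red where the limma adjusted p was under 0.05 and grey otherwise, with black bars for list medians, a dashed line for the median of all genes and a solid line at 0. Giant proteins centre on 1.62 and histones on -1.31, while chaperones, proteasome subunits and respiratory chain genes hold both enriched and depleted members.

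Several multi-subunit machines had members at both ends. Among 60 spliceosome and splicing genes 25 were higher and 10 lower. PRPF8, the largest core protein of the U5 particle, measured 13.05, 13.11 and 13.07 against 11.05, 11.37 and 11.36 (3.52-fold, adjusted p = 1.2e-09). SNRPF, a small Sm protein of the same particles, measured 9.29, 9.33 and 9.54 against 10.75, 10.92 and 10.51 (2.53-fold lower, adjusted p = 5.2e-06). The U5 helicase SNRNP200 rose by 1.94 ± 0.11, and the small U2 protein SNRPB2 fell by 1.33 ± 0.13. After cyclic loess this list held 24 higher and 24 lower, and without stressed input replicate 1 it held 22 and 17.

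The nuclear-encoded respiratory chain gave 5 higher and 23 lower of 58, with a median of -0.27, and 39 were lower after cyclic loess. COX8A, one of the smallest subunits of cytochrome c oxidase, measured 10.96, 11.28 and 10.81 against 12.56, 12.62 and 12.64 (3.02-fold lower, adjusted p = 4e-05). COX7A2 fell by 1.75 ± 0.49 and NDUFA1, a small complex I subunit, by 1.34 ± 0.27. SDHA, the large flavoprotein of complex II, rose by 1.45 ± 0.19. NDUFB7 is a small complex I subunit and nonetheless rose, with 11.81, 11.59 and 11.79 against 9.59, 9.89 and 9.83 (3.89-fold, adjusted p = 2.6e-06). The mitochondrially encoded ND5 fell by 0.79 ± 0.12.

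Mitochondrial ribosomal protein genes were lower in 23 and higher in 11 of 65, with a median of -0.19. MRPL50, MRPL1 (-1.34 ± 0.32) and MRPL32 (-1.28 ± 0.19) fell the most among those named, and MRPS26 rose by 0.62 ± 0.13. The count of higher members was 6 without stressed input replicate 1 and 5 after cyclic loess. Proteasome genes split into 9 higher and 5 lower of 29, with 3 lower without stressed input replicate 1 and 8 or 9 lower under the other scales. The base ATPases PSMC2 and PSMC3 rose by 1.78 ± 0.18 and 0.95 ± 0.12, while PSMD12 of the lid fell by 0.84 ± 0.18. Chaperones gave 11 higher and 8 lower of 37, with 15 lower after cyclic loess. CCT3 and CCT7, subunits of the chaperonin TRiC, rose by 0.96 ± 0.09 and 0.84 ± 0.12, and the small mitochondrial cochaperonin HSPE1 fell by 1.28 ± 0.22. The chaperone median was 0.07 as deposited and -0.11 after cyclic loess, so the list had no common direction.

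Cytosolic ribosomal protein mRNAs begin with a run of pyrimidines, the TOP motif, through which growth signals control their translation. The first transcribed bases are shown for members on both sides of zero and for leading genes of other lists, since the motif is the feature that sets these mRNAs apart. Each window runs from 10 bases before to 20 bases after the annotated RefSeq start (GRCh38.p14), 5′ to 3′ on the gene's strand, and the first 5 transcribed bases are in capitals.
RPS24, chr10:78033853-78033882, plus strand: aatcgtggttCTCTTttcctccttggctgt
RPL37A, chr2:216498834-216498863, plus strand: gcgtctcttcCTTTCtgggctcggacctag
RPL35A, chr3:197950180-197950209, plus strand: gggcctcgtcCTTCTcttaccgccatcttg
RPS14, chr5:150449720-150449749, minus strand: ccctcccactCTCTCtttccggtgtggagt
HERC1, chr15:63833929-63833958, minus strand: cgcctcttacGTCTTtccctttgacaagtc
DYNC1H1, chr14:101964563-101964592, plus strand: cgctctcctcAGTCTgcggtgggctagcgg
H2AC15, chr6:27838356-27838385, minus strand: gcgttacgtcAGTCTcaggaacgttactga

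Of 27 cytosolic ribosomal protein genes that had a transcript cluster of their own, 14 were lower and 2 higher, with a median of -0.41. These genes have many processed pseudogenes, and probes may read more than one copy. RPS24 measured 10.99, 10.71 and 11.18 against 12.54, 12.58 and 12.59 (3.05-fold lower, adjusted p = 3.4e-04). RPL37A and RPL35A fell by 1.39 ± 0.18 and 1.27 ± 0.13. RPS14 has the same kind of start and rose, with 12.54, 12.68 and 12.39 against 11.59, 12.21 and 12.19 (log2 change 0.54 ± 0.17, adjusted p = 0.0159). Both higher calls of the list were lost without stressed input replicate 1. For RPS14 the call was lost there, where the change was 0.33 and the adjusted p 0.0841, and without stressed G3BP1 replicate 2. RPS4X, the other higher gene, had overlapping arrays and lost its call without any 1 of 4 arrays (adjusted p up to 0.119).

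A pyrimidine start, defined as C at the first transcribed base followed by 4 bases that are each C or T on the gene's strand, was found in 4.04% of 27305 RefSeq promoters and in 4.39% of 11386 genes on the array with a promoter sequence. It was found in 18 of 25 cytosolic ribosomal protein genes. Their median change was -0.46, and that of the others in the list was -0.38. Across the array, the 500 genes with such a start had a median change of 0.15 and the 10886 without it 0.12. Higher calls made up 38.2% and 36.6% of them, and lower calls 13.4% and 9.87%. The 2 groups of genes thus lay close together.

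Genes of the G3BP1 network were measured both as the tool of the experiment and as transcripts. The G3BP1 mRNA itself measured 12.25, 12.25 and 12.11 in the immunoprecipitates and 11.99, 12.30 and 12.23 in the inputs. The arrays overlapped, and no change was called (log2 change 0.03 ± 0.13 SE, adjusted p = 0.879). G3BP2 gave -0.40 ± 0.15 (adjusted p = 0.0443), with overlapping arrays at 9.59, 9.44 and 9.45 against 9.58, 10.06 and 10.04. Its call was lost without any 1 of 5 of the 6 arrays (adjusted p up to 0.149). CAPRIN1 gave -0.13 ± 0.08 (adjusted p = 0.216). UBAP2L, a granule scaffold that binds G3BP1, rose from 12.21, 12.37 and 12.33 to 12.88, 12.82 and 12.83 (0.54 ± 0.08, adjusted p = 4.5e-05).

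In the network list of 14 genes, 7 were higher and 1 lower. These counts were 7 and 3 without stressed input replicate 1 and 7 and 4 after cyclic loess. All 14 genes were bright, and among bright genes 51.7% were higher. The share higher in this list was thus no larger than that of bright genes. FXR2, a relative of the fragile X protein, measured 11.29, 11.19 and 11.33 against 9.42, 9.50 and 9.52, a 3.46-fold enrichment. PRRC2B, a long and largely disordered protein, rose by 1.57 ± 0.12, and ATXN2L by 0.92 ± 0.08. The mRNAs of TIAR and TIA1 were not called, at -0.14 ± 0.15 for TIAL1 and -0.08 ± 0.20 for TIA1. ECT2 and AURKB, the mitotic regulators named in the study's title, gave 0.10 ± 0.25 (adjusted p = 0.767) and 0.06 ± 0.08 (adjusted p = 0.594). AURKB arrays ran from 12.63 to 12.77 in the immunoprecipitates and from 12.62 to 12.71 in the inputs.

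Other granule and decay genes were mixed. LARP1, which binds TOP mRNAs, rose from 11.36, 11.59 and 11.55 to 12.73, 12.64 and 12.71 (1.19 ± 0.07). The RNA editing enzyme ADAR rose by 1.42 ± 0.13 and ELAVL1, the AU-rich element binding protein HuR, by 0.86 ± 0.09. The cold-inducible RBM3 fell by 0.89 ± 0.10. Of 48 decay and repression factors 25 were higher and 7 lower, with the helicase MOV10 at 1.84 ± 0.15 and TNRC6B, a partner of Argonaute, at 1.48 ± 0.09, and with the small Sm-like protein LSM5 at -1.66 ± 0.32 and the deadenylase CNOT7 at -1.15 ± 0.25. Translation factors gave 9 higher and 5 lower of 30. EIF4G1, the scaffold of the cap-binding complex, rose by 1.54 ± 0.12, and EIF3E and EIF5A fell by 0.99 ± 0.21 and 0.93 ± 0.11. The count lower in this list was 8 without stressed input replicate 1 and 10 after cyclic loess, and that of decay factors was 13 after cyclic loess.

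Immediate early genes gave 16 higher and 4 lower of 33, with 10 lower after cyclic loess. Of its members 26 were bright, and the list's share higher (48.5%) was no larger than the 51.7% of bright genes. JUN measured 12.17, 12.16 and 12.01 against 10.57, 11.01 and 10.94 (1.27 ± 0.11), and FOS rose by 1.00 ± 0.13. AU-rich cytokine and growth factor mRNAs gave 13 higher and 3 lower of 31, with 7 lower after median centring. CSF1, a macrophage growth factor, rose by 1.38 ± 0.11, while the chemokines CXCL8 and CCL2 fell by 1.56 ± 0.18 and 0.78 ± 0.10. CXCL8 measured 8.01, 8.08 and 8.06 against 9.29, 9.95 and 9.59, so its groups were well apart. Metal and oxidative stress genes gave 11 higher and 6 lower of 30. GCLC, the catalytic subunit of the glutathione synthesis enzyme, and KEAP1, the sensor of oxidative stress, rose by 1.51 ± 0.22 and 1.26 ± 0.17, and FTL, ATF4 and the metallothionein MT1X (-1.66 ± 0.25) fell.

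The largest single gene family, ZNF zinc finger genes, gave 132 higher and 11 lower of 305, or 43.3% beside a background of 35.3%. The median was 0.32, and 0.20 after cyclic loess, where 113 were higher and 23 lower. ZNF462 measured 10.84, 10.73 and 10.86 against 8.64, 8.87 and 9.07 (1.95 ± 0.11). Endoplasmic reticulum folding genes gave 15 higher and 12 lower of 46. UGGT1, the glycoprotein folding sensor, rose by 1.80 ± 0.22, and the small translocon-associated SSR4 fell by 1.18 ± 0.20. Mitosis genes gave 20 higher and 8 lower of 59, with 25 lower after cyclic loess. Apoptosis genes gave 18 higher and 3 lower of 39, with CASP9 at 1.63 ± 0.19. Without stressed input replicate 1 these counts were 15 and 5, and after cyclic loess 14 and 11. The medians of the endoplasmic reticulum, mitosis and metal stress lists were 0.07, 0.06 and 0.08 as deposited and -0.10, -0.11 and -0.09 after median centring, so none of these lists had a direction that held under another scale.

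Marker lists of other cell types were set beside the background of 35.3% higher and 9.9% lower. Higher and lower counts were 4 and 1 of 13 neuron markers, 0 and 1 of 13 myeloid markers, 3 and 3 of 10 epithelial markers and 1 and 2 of 10 blood and endothelial markers. They became 4 and 0, 1 and 0, 2 and 0 and 1 and 1 without stressed input replicate 1. PTPRC, the leukocyte marker CD45, measured 3.51 to 3.61 in the immunoprecipitates and 3.65 to 3.88 in the inputs, near the bottom of the scale, and its call was lost without any 1 of 5 arrays (adjusted p up to 0.138). Astrocyte and glioma markers gave 6 higher and 2 lower of 16, with GFAP at 1.03 ± 0.10 and NES at 1.25 ± 0.11. Averaged over the list, marker levels per array ran from 7.51 to 7.61 in the inputs and 7.81 to 7.90 in the immunoprecipitates for neuron markers, where the synaptic vesicle gene SYT1 rose by 1.99 ± 0.13. The same ranges were 6.26 to 6.41 and 6.25 to 6.35 for myeloid, 8.0 to 8.11 and 8.01 to 8.14 for epithelial, and 6.49 to 6.65 and 6.47 to 6.57 for blood and endothelial markers. Immunoprecipitates and inputs came from the same cell line, so these levels describe RNA recovered and not numbers of cells. The part of these markers in the other results was not tested.

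The length of a gene in the genome, which RefSeq gives for 14205 of the genes, went with enrichment. In the shortest decile, with spans of 270 to 3917 bases, 11.2% of genes were higher and 17.9% lower. In the longest decile, from 164169 bases upward, 52.0% were higher and 4.86% lower. Median log2 changes were -0.09 and 0.38. The Spearman correlation across genes was 0.28, and 0.23 without stressed input replicate 1. Genes share the same 6 arrays and are not independent replicates. Brightness varied with span as well, with 40.2% of the shortest decile, at most 61.5% in between and 50.2% of the longest at or above the median value. Among bright genes alone, the share higher rose from 20.5% in the shortest decile to 73.9% in the longest, and the share lower fell from 24.9% to 3.36%. After cyclic loess the medians were -0.13 and 0.25. Genomic span includes introns and is not the length of the mRNA. HERC1 spans 225331 bases, DYNC1H1 91871 and H2AC15 496.

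**Figure D3:**
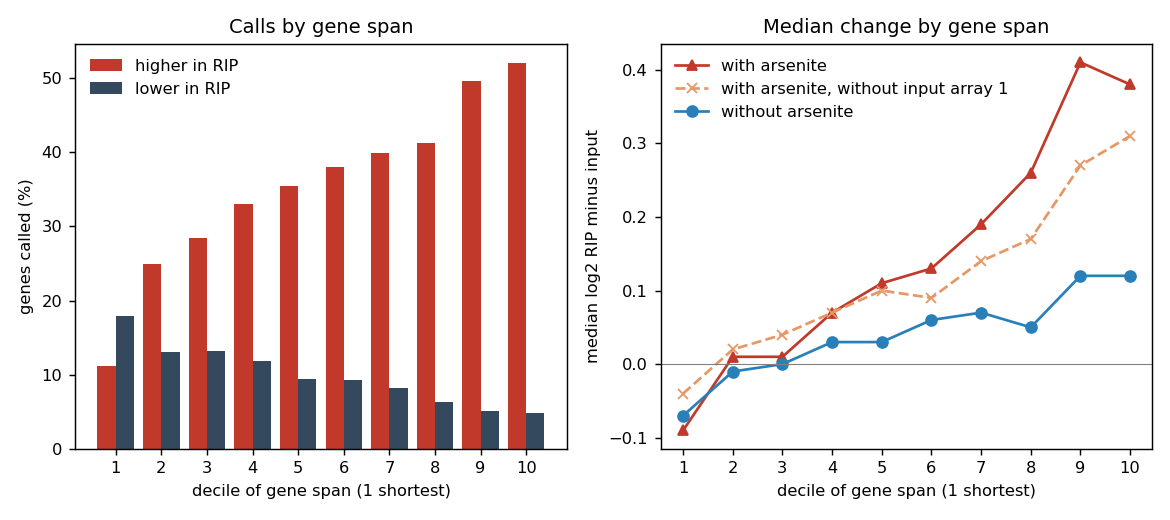
Genes in deciles of genomic span (x axis, 1 shortest), with the percentage called higher or lower in stressed G3BP1 immunoprecipitate (left) and the median log2 change (right) with arsenite, with arsenite but without stressed input replicate 1, and without arsenite. Calls higher run from 11.2% to 52.0% and calls lower from 17.9% to 4.86%, and the line without arsenite ends at 0.12 where that with arsenite ends at 0.38.

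How much of this pattern was there before arsenite was asked with the unstressed immunoprecipitates and inputs, which share no array with the stressed comparison. In unstressed cells 3374 genes (23.7%) were higher and 2221 (15.6%) lower. Of the genes higher under stress, 2863 were also higher without it, which is 57.0% of the stressed and 84.9% of the unstressed calls. Of those lower, 708 were shared, which is 50.2% of the stressed and 31.9% of the unstressed calls. Opposite calls were made for 329 genes higher under stress and lower without it, and for 7 the other way round. Log2 changes of the 14232 genes correlated with Pearson's r of 0.70 and Spearman's rho of 0.62 between these comparisons, across genes that are not independent replicates.

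The ends of the distribution were thus present in unstressed cells. HERC1 was enriched by 2.31 ± 0.19 and DGKA by 2.52 ± 0.09 without arsenite. Histones were lower in 48 of 53, with a median of -1.63, and giant proteins higher in 50 of 56, with a median of 1.05. MALAT1 was depleted more in unstressed cells, at -4.29 ± 0.29, and its immunoprecipitate mean was 7.53 there and 9.56 under stress.

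The difference between the enrichments was tested directly. With arsenite, 3137 clusters (14.3%) gained enrichment and 584 (2.65%) lost it, by limma at an adjusted p under 0.05. Among genes the counts were 2421 (17.0%) and 319 (2.24%). The cluster counts were 2578 and 935 without stressed input replicate 1, and without both arrays that stood apart 2887 and 2155. The share of gains among calls was 84.3% as deposited, 65.9% after median centring and 57.3% without both arrays, so the balance of gains and losses rests on those arrays and on the scale.

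Membrane receptors gained in 19 and lost in 0 of 48, and their median went from 0.62 without to 1.10 with arsenite. Ubiquitin ligases gained in 23 and lost in 1 of 67, and decay factors gained in 19 and lost in 4 of 48. Without stressed input replicate 1 the gains in these lists were 15, 19 and 14 and the losses 1, 3 and 4. ZNF genes gained in 49 and lost in 0 of 305, a share of gains near the 17.0% of all genes. Giant proteins gained in 15 and lost in 1 of 56. DYNC1H1 gained 0.83 ± 0.18 (adjusted p = 0.00449) and FAT1 0.96 ± 0.21 (adjusted p = 0.00523). Splicing genes went the other way, with 2 gains and 14 losses of 60, as did tRNA synthetases with 0 and 6 of 31. Respiratory chain genes, depleted at a median of -0.73 in unstressed cells, gained in 14 and lost in 1 of 58. Without stressed input replicate 1, gains and losses were 12 and 2 for giant proteins and 1 and 19 for splicing genes. They were 0 and 8 for tRNA synthetases and 12 and 1 for the respiratory chain. Unstressed G3BP1 replicate 3 was far the lowest for some respiratory genes, as COX7A2 at 8.85, 9.10 and 6.50. The lists were not counted without that array.

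**Figure D4:**
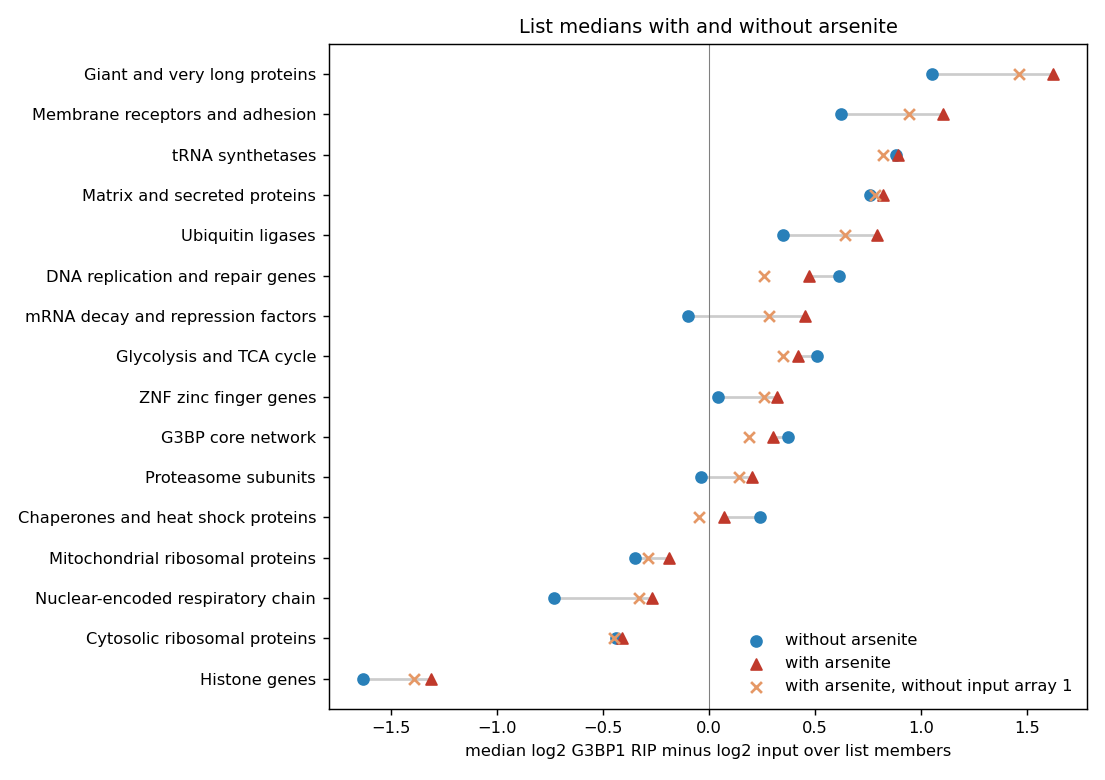
Median log2 change between G3BP1 immunoprecipitate and input (x axis) over the members of 16 gene lists (y axis), without arsenite (circles), with arsenite (triangles) and with arsenite but without stressed input replicate 1 (crosses). Receptors, ubiquitin ligases and decay factors sit higher with arsenite, as at 1.10 against 0.62 for receptors, while matrix genes (0.82 and 0.76) and cytosolic ribosomal proteins (-0.41 and -0.44) differ little.

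The largest gains were looked for among genes also enriched under stress, and 5 of the 8 named (LRRC8B, POMK, TMTC1, SPPL3 and FAM171B) were depleted without arsenite. POMK, a kinase that modifies the mannose glycan of dystroglycan, had stressed immunoprecipitates of 10.45, 10.39 and 10.41 over inputs of 9.34, 9.98 and 9.84, and unstressed means of 9.25 and 10.57. The gain was 2.02 ± 0.23 (adjusted p = 5.11e-05). LRRC8B, a subunit of the volume-regulated anion channel, gained 2.07 ± 0.34, from -1.14 ± 0.24 to 0.94 ± 0.24, though the stressed enrichment was 0.56 without stressed input replicate 1. TMTC1, an endoplasmic reticulum mannosyltransferase, gained 1.99 ± 0.32 and the intramembrane protease SPPL3 1.98 ± 0.30. LIFR, the receptor of leukemia inhibitory factor, gained 1.94 ± 0.43, CCNQ 1.90 ± 0.54, EDEM1, which targets misfolded glycoproteins for degradation, 1.78 ± 0.39, and FAM171B 1.71 ± 0.37. Each of these gains was smaller without both arrays that stood apart, as 1.64 for POMK, 1.20 for LIFR and 1.10 for EDEM1. In all 8 genes stressed input replicate 1 was the lowest of the inputs. Without it the gain of CCNQ was not called (adjusted p = 0.0605), nor was it without unstressed input replicate 1 (0.0613) or stressed G3BP1 replicate 1 (0.0592), and SPPL3 and FAM171B were no longer called enriched under stress itself (adjusted p of 0.197 and 0.221). Each of these lost that call without other arrays too. Mean inputs were lower with arsenite than without for EDEM1 (8.16 and 9.09), FAM171B (8.93 and 9.78) and CCNQ (8.76 and 9.76). Mean immunoprecipitates of these genes were higher with arsenite, at 9.37 and 8.51, 9.63 and 8.77, and 10.26 and 9.37. Both parts of their enrichment thus moved.

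The largest losses, looked for among genes also depleted under stress, fell on genes of several functions. SNW1, a splicing and transcription coregulator, went from enrichment of 0.83 ± 0.16 without arsenite to -0.70 ± 0.16 with it. Its stressed immunoprecipitates measured 8.87, 8.55 and 8.65 and its inputs 9.05, 9.52 and 9.61. DNAJA2, a cochaperone of the heat shock protein HSP70 family, lost 1.49 ± 0.28, the RNA-binding La protein SSB 1.13 ± 0.22, and SOD1, the cytosolic superoxide dismutase, 1.02 ± 0.18. UTP3, NUF2 and TERF2IP lost 1.20 ± 0.29, 1.17 ± 0.32 and 1.07 ± 0.27, and the stressed arrays of NUF2 overlapped. Without stressed G3BP1 replicate 2 the loss of NUF2 was not called (adjusted p = 0.0502). Depletion under stress itself was not called without any 1 of 3 arrays for UTP3 and of 4 arrays for NUF2 and TERF2IP (adjusted p up to 0.0593, 0.133 and 0.0658). ATF4 and MT1X had higher mean inputs with arsenite than without. The mean input of ATF4 was 8.39 without and 10.51 with arsenite, and its immunoprecipitate went from 7.60 to 8.71. For MT1X, a metallothionein, the input means were 6.52 and 8.98 and those of the immunoprecipitate 6.33 and 7.32. The change of enrichment was -1.0 ± 0.17 for ATF4 (adjusted p = 0.00093) and -1.47 ± 0.35 for MT1X (adjusted p = 0.00924).

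The G3BP1 mRNA was enriched by 0.80 ± 0.13 in unstressed cells and lost that enrichment with arsenite (-0.77 ± 0.18, adjusted p = 0.00791). Its mean input was 11.74 without and 12.17 with arsenite, and its mean immunoprecipitate went from 12.53 to 12.20. CAPRIN1 gave 0.29 ± 0.08 without arsenite and a change of -0.42 ± 0.11 (adjusted p = 0.0179), which was not called without stressed G3BP1 replicate 2 (adjusted p = 0.0515).

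**Figure D5:**
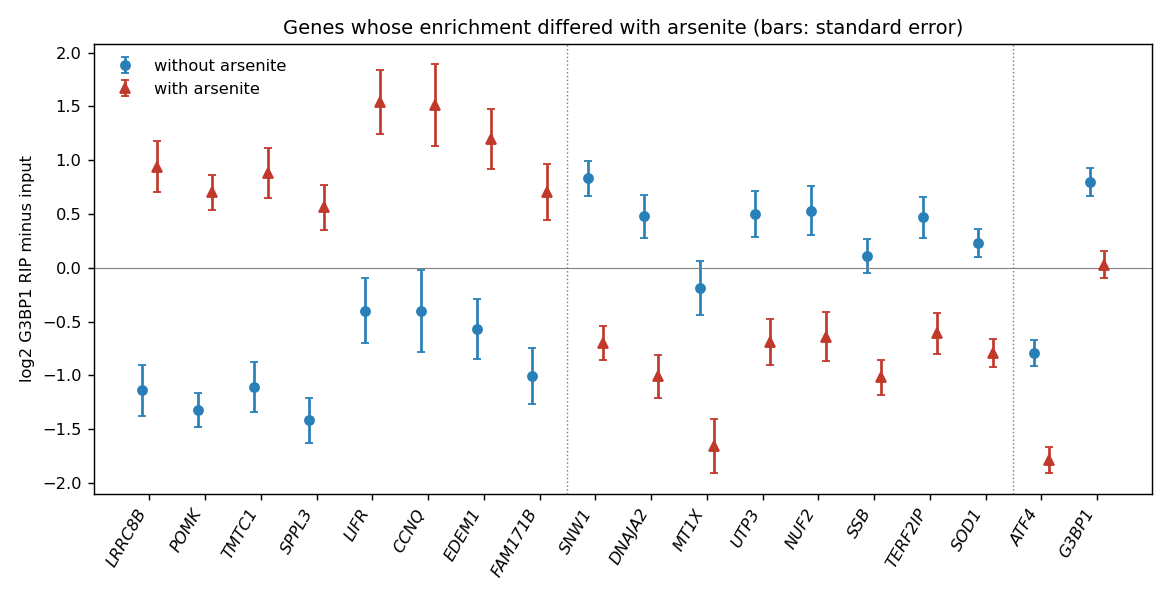
Log2 change between G3BP1 immunoprecipitate and input (y axis) without arsenite (circles) and with arsenite (triangles) for 18 named genes (x axis), with bars of 1 standard error from the limma fit. Genes left of the first dotted line gained enrichment, as POMK from about -1.32 to 0.70, those in the middle lost it, as SNW1 from 0.83 to -0.70, and ATF4 and G3BP1 at the right also lost it.

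Finally, the stressed G3BP1 immunoprecipitate was set against the stressed TIAR immunoprecipitate, which uses the same G3BP1 arrays. Here 4618 genes (32.4%) were higher with G3BP1 and 2044 (14.4%) lower. Giant proteins were higher in 38 and lower in 2 of 56, with a median of 1.05, and HERC1 and DYNC1H1 differed between the proteins by 1.93 ± 0.19 and 2.18 ± 0.12. Respiratory chain genes were higher with G3BP1 in 41 and lower in 2 of 58, and mitochondrial ribosomal proteins in 47 and 7 of 65, while the medians of both lists lay below input. Proteasome genes gave 21 and 2 of 29. Histones gave 15 higher and 3 lower of 53. Across all 14205 genes with a span, the Spearman correlation of span with the change against TIAR was -0.13, opposite in sign to the 0.28 against input.

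Single genes were named from those called the same way against TIAR and against input. PSMC3, a proteasome ATPase, differed by 3.21 ± 0.12 (adjusted p = 7.1e-11) and was 0.95 ± 0.12 above input. NDUFB7 differed by 3.31 ± 0.21, the import adaptor SNUPN by 3.29 ± 0.25, PICK1, a scaffold of membrane receptors, by 3.04 ± 0.10, the glycosaminoglycan enzyme B3GAT3 by 2.97 ± 0.19 and NSMCE1, a subunit of the SMC5/6 complex, by 3.33 ± 0.31. The enrichment of NSMCE1 over input was not called without any 1 of 4 arrays (adjusted p up to 0.116), nor was the depletion of COX20, named next (adjusted p up to 0.129). Lower with G3BP1 than with TIAR were GMFB (-2.49 ± 0.20), the Golgi transport protein GOLT1B (-2.39 ± 0.25), DCUN1D1, a neddylation factor (-2.38 ± 0.13), the cytochrome oxidase assembly factor COX20 (-2.32 ± 0.46), STYX (-2.27 ± 0.22) and ZNF280C (-2.26 ± 0.13). In the G3BP1 network 2 of 14 were higher with G3BP1 and 9 lower, among them G3BP1 itself (-0.42 ± 0.13), CAPRIN1 (-0.74 ± 0.08) and G3BP2 (-1.18 ± 0.15). EGFR and ELAVL1, enriched over input, did not pass the test between the proteins, with -0.01 ± 0.12 and 0.08 ± 0.09.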

How the data were processed

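Exon arrays of 18 RNA samples were analysed, with one value per transcript cluster. The authors deposited log2 values made with RMA in Affymetrix Expression Console, per the submitters' processing notes. The sources used here do not give versions, probe filters or a genome build. Values are relative abundances within an array, and their distributions still differed between arrays. The number of arrays limits the precision.

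Groups came from the sample titles. One limma model (R 4.3.3, limma 3.58.1) with 6 group means over 18 arrays was fitted to all 22011 clusters, with Benjamini-Hochberg adjustment over all of them and a threshold of 0.05. Adjusted p-values come from it, or, where an array is said to be left out, from the same model refitted without that array, and under another scale from the same model on the rescaled values. It was tested on simulated data. Of the clusters 14432 (65.6%) carry 1 gene symbol, 2408 several and 5171 none in the platform annotation, which can be old, and the brightest cluster stands for a gene. Promoter sequences and gene spans are those of RefSeq (GRCh38.p14).

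The comparison, the 33 gene lists and the named genes were chosen with earlier results of these data known, and lists carry no test. Named were up to 15 genes per direction with arrays that did not overlap, a call also without stressed input replicate 1 and a brighter group mean of at least 7.88. Further named were 9 fixed genes, up to 4 called members per list in its main direction and 2 in the other, and the extremes of the arsenite (8 per direction) and TIAR (6 per direction) comparisons, which also had to be called the same way against input. USP10, 1 of the fixed genes, had no cluster with a single symbol. Alternatives covered scaling, filters, array weights, a replicate block and left-out arrays. Same-numbered arrays of the compared groups did not deviate together (correlations of -0.29, -0.09 and -0.09).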

Additional observations from a re-analysis of the deposited data

Results flagged for a closer look

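These results are listed because the enrichment with arsenite differed from that without it, by the test of the difference itself in the limma fit. Of the genes, 16 were named because they were called extremes of this same difference, so their passing was fixed by that choice. Of the other 38 genes examined, 13 passed at an adjusted p under 0.05, beside 17.0% of all genes with more and 2.24% with less enrichment under arsenite. The most enriched and most depleted of the 38 were chosen by their stressed change, which is itself part of this difference. That choice tilts the difference toward the direction of the stressed change, so their passing is not independent of it. Values are differences between log2 enrichments, with positive values for more enrichment under arsenite.

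Some giant and secreted proteins among the most enriched genes had larger enrichments with arsenite, at 0.83 for DYNC1H1, 1.09 for FRAS1 and 0.96 for FAT1. FST (0.78), FBN1 (0.83) and FAT4 (0.76) did too, but each of these 3 lost its call when stressed input replicate 1 was left out (adjusted p of 0.0531, 0.0674 and 0.085) and when any of several other arrays was. The giant proteins HERC1, UBR4, PRKDC and MYCBP2, also among the most enriched, did not pass this test. Among the most depleted genes, 4 were less depleted with arsenite. The differences were 1.72 for MALAT1, 0.86 for H2AC15, 1.77 for COMMD6 and 1.51 for TMEM258. That of H2AC15 was not called without unstressed input replicate 3 (adjusted p = 0.0598) or without both arrays that stood apart, where it was 0.54 (adjusted p = 0.0615). Without both arrays FST, FAT4 and CCNQ were not called either, at 0.43, 0.39 and 1.10. Still called there, but smaller, were MALAT1 at 1.13, COMMD6 at 1.15 and TMEM258 at 1.12. The same held for DYNC1H1 at 0.56, FRAS1 at 0.73 and FAT1 at 0.61. ATF4 was more depleted with arsenite, by -1.0.

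Among granule genes, the G3BP1 mRNA differed by -0.77 and CAPRIN1 by -0.42. The genes named for their gain differed by 2.07 for LRRC8B, 2.02 for POMK, 1.99 for TMTC1, 1.98 for SPPL3, 1.94 for LIFR, 1.90 for CCNQ, 1.78 for EDEM1 and 1.71 for FAM171B. Those named for their loss differed by -1.53 for SNW1, -1.49 for DNAJA2, -1.47 for MT1X, -1.20 for UTP3, -1.17 for NUF2, -1.13 for SSB, -1.07 for TERF2IP and -1.02 for SOD1. Without both arrays that stood apart the gains were smaller, as 1.20 for LIFR and 1.10 for EDEM1. The losses moved both ways there, as to -1.86 for SNW1 and -0.97 for SSB. CCNQ, NUF2 and CAPRIN1 each lost the call without at least 1 of the arrays, as given with their values above. Under median centring, quantile normalization and cyclic loess all 29 differences were called.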

How the results depend on the processing

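As deposited, 6440 clusters were higher and 3339 lower, 3721 differed between stressed and unstressed enrichment, and 9752 differed from the TIAR immunoprecipitate. Leaving out each compared array in turn gave 5549 to 6450, 2650 to 3357, 2802 to 4033 and 8768 to 9217. Lower clusters numbered 5696 after median centring, 5066 after cyclic loess and 1890 without the dimmer 50% of clusters, where fewer were tested. Array weights raised the stressed against unstressed count to 5960. A change of at least 2-fold left 2085, 1047, 1143 and 4048. With the replicate number as a block the counts were 6275, 3144, 3389 and 9520, although the numbers did not pair the arrays.

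Of 210 named genes called against input, 28 lost the call under at least 1 alternative, and 1 changed sign: PTPRC, at 0.13 after quantile normalization. The median of translation factors was -0.02 under median centring without stressed input replicate 1. The cause was not tested. That combination and gene span, used in place of protein length, were chosen after seeing the data. Protein length was not run. With 3 arrays a group, changes close to their errors could not be resolved, and values near the bottom of the scale are little above background.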
